A study of Mus musculus with 9 samples.

Results

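The 38 genes described here are Trp53, which encodes the transcription factor p53, genes known as its targets, and regulators of apoptosis. They were taken from a fixed list of symbols, which was chosen with earlier results of these data known. Each symbol was found among the 24647 genes named on the arrays. Together they stand on 45 of 41345 transcript clusters, the units for which the array gives a value, and each gene was read at its brightest cluster over the 9 arrays. Gene expression was measured in mouse embryonic fibroblasts, connective tissue cells from the embryo, in 3 lines with 3 culture dishes each. The human APE1 line and the mouse Ape1 line are named after the protein of each species, and the vector control line is what both are set against. All 3 lines are without a working mouse gene for the protein (mApe1-/-) and carry a human APE1 transgene (hAPE1TG), per the labels and the design text. They are male, isogenic to C56BL/6 as the labels spell it, and were growing when harvested, with no drug or damaging agent named in the labels. A header in the authors' deposited table says that the MEF have very little APE1 and that both other lines have far more of it than vector control, so vector control is a line of low APE1 and not one known to be free of it. No source used here says how the lines were derived. The study asked whether the human and the mouse protein regulate groups of genes alike. Apex1, the gene of mouse Ape1, is not analysed here, so the labels had no check from the gene they are named for.

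APE1 cuts DNA where a base has been lost, a step of base excision repair, and it also keeps transcription factors, p53 among them, in a reduced state that binds DNA. When DNA is damaged, p53 is stabilised and switches on genes that halt the cell cycle, repair DNA or kill the cell. Killing runs along a mitochondrial route, which the BCL2 family controls and which ends in the apoptosome of cytochrome c, Apaf1 and caspase 9, and along a route from death receptors such as Fas to caspase 8. Embryonic fibroblasts are a standard cell for the study of p53, because they arrest or senesce when it is active.

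Each group is 1 cell line, so the p-values measure the spread between dishes of 1 line, and line and construct cannot be told apart. Over transcript clusters, the correlation was r = 0.990 to 0.993 within a group and r = 0.977 to 0.987 between groups. Of 10 fibroblast markers, 7 lay above the array median on all 9 arrays, while Pdgfra, Thy1 and Dcn did not. The mean of the 10 markers was 8.90 to 9.02 on the human APE1 arrays, 9.17 to 9.26 on the mouse Ape1 arrays and 9.82 to 9.90 on the vector control arrays, on the log2 scale. Of these markers 7 fell and 0 rose in human APE1, and 7 fell and 2 rose in mouse Ape1. Of 5 macrophage markers, 4 lay below the array median on all arrays, Ptprc among them, and Cd68 lay above it on all. Of 5 epithelial markers Epcam was below on all arrays, Krt8 above on all, and the other 3 on either side. Of 5 endothelial markers Tek and Emcn were below on all arrays, Pecam1 above on all, and the other 2 on either side. The means of these 3 lists ranged from 4.86 to 5.68 over all arrays. Among these markers the endothelial Cdh5 rose in mouse Ape1 by 0.32 (limma adjusted p = 0.0223) and was lower in human APE1 than in mouse Ape1 by −0.40 (adjusted p = 0.00975). In such bulk samples fewer cells of a type and less RNA per cell cannot be told apart, and the part of these markers in the results below was not tested.

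The promoters of 4 of the genes are shown, to set the letters of a p53 site beside the values of known p53 targets. They are the 250 bases before a transcript start in RefSeq (build GRCm38.p6), on the gene's own strand, where at least 1 such window was matched for 32 of the 38 genes. Sesn1 has 2 windows, and the one printed, which holds the match, precedes an internal start that lies 76865 bases into the annotated gene, while its other window holds none. Ccng1 and Sesn1 hold a match to the p53 response element, a pair of half-sites of 10 bases each with no spacer, and the capitals mark its 20 bases. Mdm2 is shown as a p53 target that was higher in both lines and Fas as the gene with the largest differences of the 38, and neither holds a match in this window. The window is chr11:40755287-40755536 for Ccng1 (minus strand), chr10:41887189-41887438 for Sesn1 (plus strand), chr10:117710759-117711008 for Mdm2 (minus strand) and chr19:34290409-34290658 for Fas (plus strand).
Ccng1: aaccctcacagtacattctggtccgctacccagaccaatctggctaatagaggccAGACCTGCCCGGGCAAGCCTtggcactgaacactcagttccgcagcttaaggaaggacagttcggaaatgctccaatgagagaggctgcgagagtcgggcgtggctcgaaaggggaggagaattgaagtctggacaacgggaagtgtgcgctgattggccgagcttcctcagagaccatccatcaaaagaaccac
Sesn1: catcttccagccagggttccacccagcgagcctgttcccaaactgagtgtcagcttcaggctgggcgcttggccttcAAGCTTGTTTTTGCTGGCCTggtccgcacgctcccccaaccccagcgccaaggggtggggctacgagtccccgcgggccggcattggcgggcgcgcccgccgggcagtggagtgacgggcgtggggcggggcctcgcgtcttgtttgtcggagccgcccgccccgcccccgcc
Mdm2: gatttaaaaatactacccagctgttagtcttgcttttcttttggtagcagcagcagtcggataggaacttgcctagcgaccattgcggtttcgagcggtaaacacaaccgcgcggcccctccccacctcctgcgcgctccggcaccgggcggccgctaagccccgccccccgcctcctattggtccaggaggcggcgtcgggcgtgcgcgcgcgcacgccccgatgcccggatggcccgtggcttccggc
Fas: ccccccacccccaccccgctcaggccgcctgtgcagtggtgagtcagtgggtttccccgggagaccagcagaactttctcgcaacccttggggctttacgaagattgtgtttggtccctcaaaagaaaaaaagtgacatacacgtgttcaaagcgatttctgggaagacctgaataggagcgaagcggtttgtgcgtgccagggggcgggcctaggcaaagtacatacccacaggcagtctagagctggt

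The element was searched by its consensus, which reads the same on both strands. The C and the G at the core of each half-site had to be kept, and up to 3 other letters could differ, a limit chosen after matches were seen. A gene with several windows counted where any of them held a match. It was found in 5 of the 32 genes, Ccng1, Sesn1, Trp53, Bbc3 and Aen, and in 1.36% of the 27025 genes with a promoter entry. With at most 1 letter off only Ccng1 remained among the 32, beside 0.0703% of all genes. Its match (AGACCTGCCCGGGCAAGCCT) began 195 bases before the start, and that of Sesn1 (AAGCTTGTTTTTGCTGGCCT), with 3 letters off, began 173 bases before it. A match is a description of letters, and known p53 sites in introns, as in Mdm2 and in Fas, lie outside these windows. Of the 5 genes with a match, Ccng1, Sesn1 and Trp53 were higher in human APE1 than in mouse Ape1, and Bbc3 and Aen passed in no comparison. Against vector control, Ccng1 passed only as a rise in human APE1, and Sesn1 and Trp53 only as falls in mouse Ape1.

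Across the 38 genes, differences between the lines were common and went both ways. In human APE1 against vector control, 8 genes rose and 5 fell (34.2% of the 38), where 11.8% of all transcript clusters passed. In mouse Ape1 against vector control, 6 rose and 12 fell (47.4%), where 16.2% passed. In human APE1 against mouse Ape1, 13 were higher and 5 lower (47.4%), where 12.4% passed. A gene was called where limma's p-value, after Benjamini-Hochberg adjustment across the whole array, was under 0.05. Many transcript clusters are dim, and 34 of the 38 genes had a mean at or above the median of all clusters. Among the 13492 genes of that brightness the shares called were 26.8%, 33.1% and 28.2% in the same order of comparisons. Against that background the 38 genes stood closest in human APE1 against vector control.

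The 3 arrays of each group did not overlap for 20 of the 38 genes, or 52.6%, in human APE1 against vector control (26.7% of transcript clusters, and 6853 of the 13492 brighter genes or 50.8%). In mouse Ape1 against vector control this held for 22 genes, or 57.9% of the 38 (33.1% of transcript clusters, and 7843 of the brighter genes or 58.1%). Between the lines it held for 28 genes, or 73.7% (28.7% of transcript clusters, and 7154 of the brighter genes). Separation from vector control was thus about as frequent among the 38 genes as among genes of like brightness.

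By direction, the 12 falls in mouse Ape1 (31.6%) stood beside 7.07% of transcript clusters and 16.7% of the brighter genes. The 13 genes higher in human APE1 than in mouse Ape1 (34.2%) stood beside 4.91% and 12.2%. The 8 rises in human APE1 (21.1%) stood beside 5.4% and 11.4%, and its 5 falls (13.2%) beside 6.35% and 15.4%. The 6 rises in mouse Ape1 (15.8%) stood beside 9.09% and 16.5%, and the 5 genes lower in human APE1 than in mouse Ape1 (13.2%) beside 7.5% and 16.0%. The median difference of the 38 genes was −0.02, −0.02 and 0.14 on the log2 scale in the 3 comparisons, against 0.02, 0.00 and 0.02 for all transcript clusters. The role groups described next hold 2 to 10 genes each, and their counts are to be read against these same shares. Both comparisons with vector control use the same 3 vector control arrays, so their values are not independent.

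In the moderated F-test over the 3 groups 24 of 38 genes (63.2%) passed, where 20.4% of transcript clusters and 44.1% of the brighter genes passed. In the authors' deposited table of transcript clusters that passed their own 3-group test after adjustment, 22 of the 38 genes are listed, 20 of them among the 24, and that table holds 17.2% of all clusters. The 13 genes that passed in no comparison were Zmat3, Gadd45a, Ddit4l, Bbc3, Pmaip1, Aen, Perp, Tnfrsf10b, Mcl1, Casp9, Diablo, Xiap and Birc2. Without human APE1 replicate 2 the number called in human APE1 against vector control was 8 in place of 13. All 49 called differences of these genes had the same direction in the ratios of the authors' deposited table. That table describes the same 3 groups and is not independent of these values, and 12 of the 49 did not pass with its p-values.

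**Figure D1:**
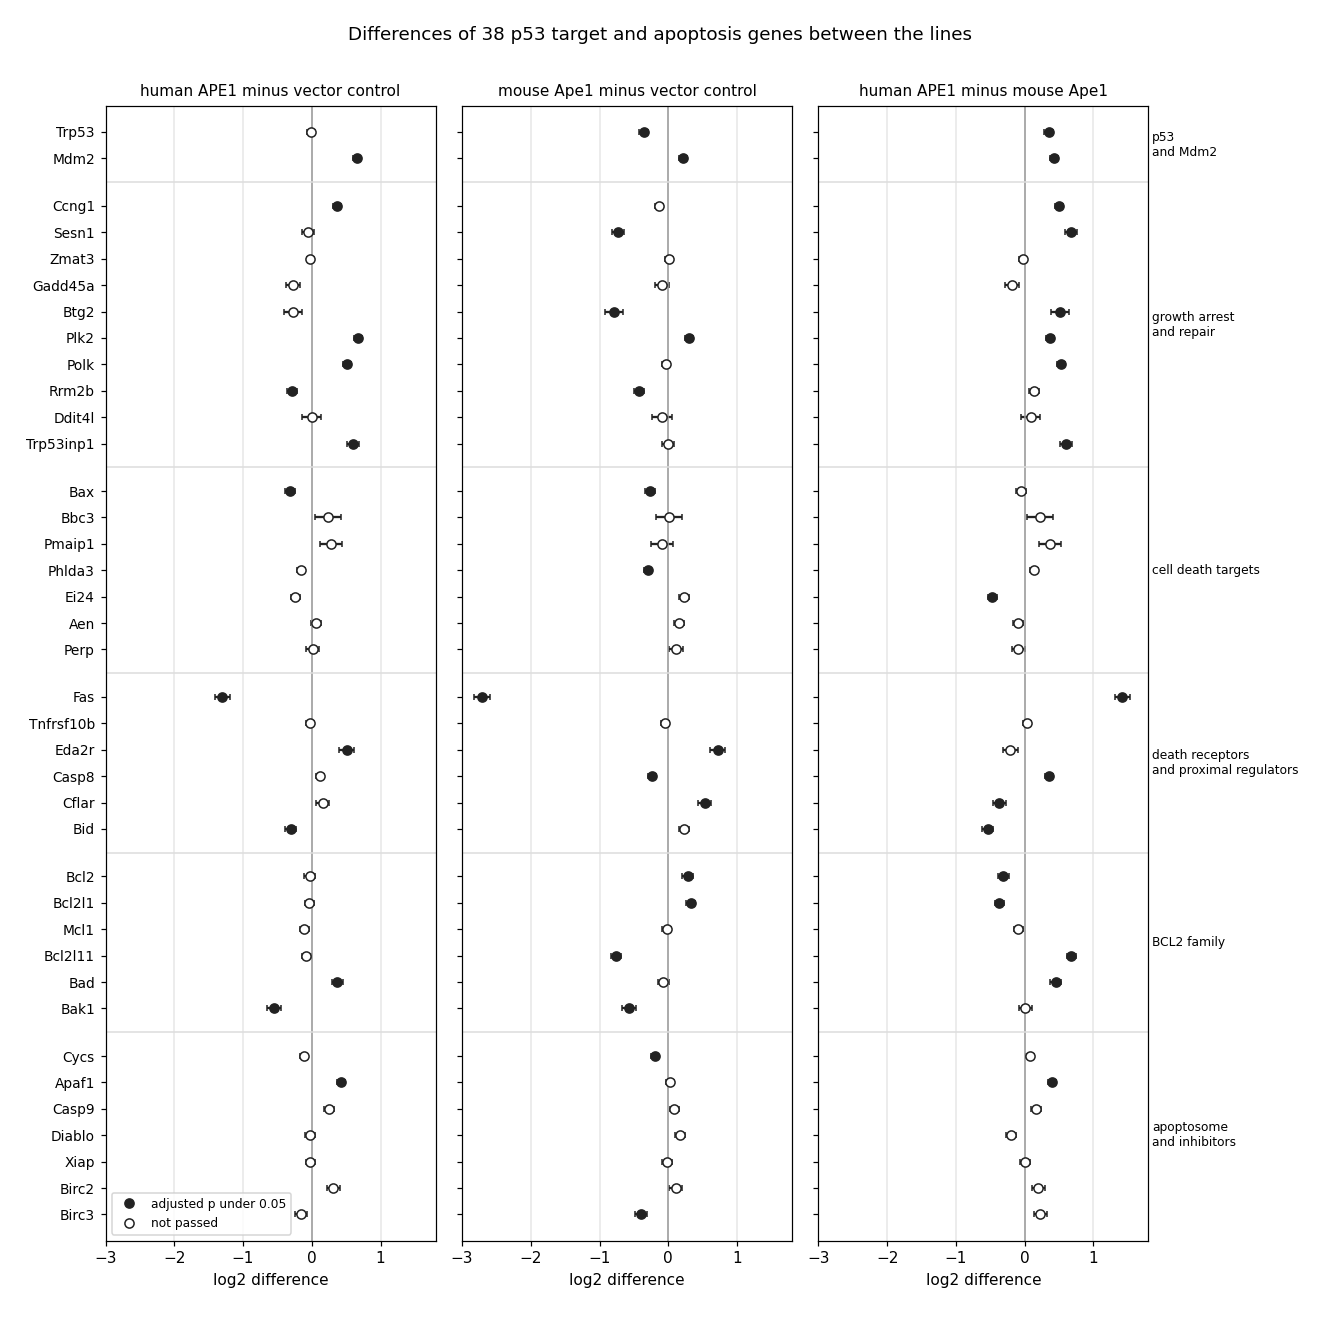
Log2 differences of the 38 genes, ordered by role down the page, in the 3 comparisons. Points are differences of group means (n = 3 arrays each), bars are the standard error from limma, and filled points passed at an adjusted p under 0.05; Fas lies farthest from 0 in each panel, at −1.30, −2.71 and 1.42.

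**Figure D2:**
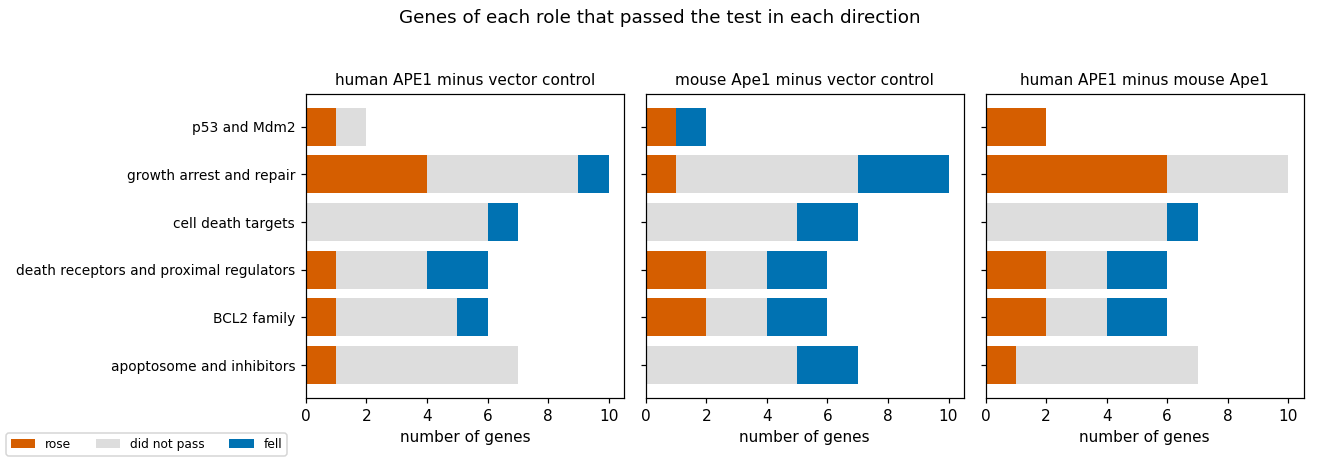
Number of genes of each role that rose, fell or did not pass in each comparison, where rose means higher in the first-named line. Of the 10 genes of growth arrest and repair, 6 were higher and 0 lower in human APE1 than in mouse Ape1.

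Mdm2 is the ubiquitin ligase that marks p53 for destruction and is itself switched on by p53. Trp53 and Mdm2 did not move together against vector control, while both were higher in human APE1 than in mouse Ape1. Trp53 had a mean of 11.38 ± 0.073 in human APE1, 11.03 ± 0.058 in mouse Ape1 and 11.38 ± 0.04 in vector control (SD, n = 3 each), on the log2 scale. It was lower in mouse Ape1 than in vector control by a log2 difference of −0.36 (SE 0.062, limma adjusted p = 0.00632) and higher in human APE1 than in mouse Ape1 by 0.35 (adjusted p = 0.00755). In human APE1 against vector control it differed by −0.01 (adjusted p = 0.975).

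Mdm2 read 10.63, 10.77 and 10.73 on the human APE1 arrays, 10.28 on each of the mouse Ape1 arrays and 10.08, 10.06 and 10.04 on the vector control arrays. The human APE1 arrays were the highest, the mouse Ape1 arrays lay between, and no groups overlapped. Mdm2 thus rose 1.57-fold in human APE1 (log2 difference 0.65, SE 0.057, limma adjusted p = 0.000287) and stood above mouse Ape1 by 0.43 (adjusted p = 0.00189), or by 0.23 once the median shift of its chromosome was subtracted (adjusted p = 0.0151). Its rise in mouse Ape1 was 0.22 (adjusted p = 0.031), in the line where Trp53 was lower. That call was lost when any 1 of the mouse Ape1 or vector control arrays was left out (adjusted p = 0.0631 to 0.0871), and the difference was 0.16 after array medians were subtracted (adjusted p = 0.175).

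Among the 10 genes of growth arrest and repair, 4 rose and 1 fell in human APE1, and 1 rose and 3 fell in mouse Ape1. Between the lines 6 were higher and 0 lower in human APE1 than in mouse Ape1, with a median difference of 0.43, where 4.91% of transcript clusters and 12.2% of the brighter genes were higher. These 6 were Ccng1, Sesn1, Btg2, Plk2, Polk and Trp53inp1. They reached that difference from different sides of vector control, some by a rise in human APE1 and some by a fall in mouse Ape1.

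Plk2, a polo-like kinase, read 12.2, 12.22 and 12.2 in human APE1, 11.91, 11.81 and 11.8 in mouse Ape1 and 11.57, 11.55 and 11.49 in vector control. The 3 groups were separate, in the same order as for Mdm2. Plk2 rose by 0.67 in human APE1 (SE 0.057, limma adjusted p = 0.000251) and by 0.30 in mouse Ape1 (adjusted p = 0.00876), and the lines differed by 0.37 (adjusted p = 0.00377).

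Polk, the DNA polymerase kappa that copies past damaged bases, read 8.83, 8.79 and 8.72 in human APE1, 8.22, 8.24 and 8.28 in mouse Ape1 and 8.27, 8.32 and 8.23 in vector control. Only the human APE1 arrays stood apart, and those of mouse Ape1 and vector control overlapped. It rose by 0.51 in human APE1 (SE 0.056, limma adjusted p = 0.000959) and differed by −0.03 in mouse Ape1 (adjusted p = 0.814). Trp53inp1, a stress-induced protein of autophagy and cell death, read 7.7, 7.62 and 7.73 in human APE1, 7.04, 7.18 and 7.04 in mouse Ape1 and 6.96, 7.04 and 7.25 in vector control. Again the human APE1 arrays were above both other groups, which overlapped. It rose by 0.60 in human APE1 (SE 0.087, limma adjusted p = 0.00347) and stood above mouse Ape1 by the same 0.60 (adjusted p = 0.00284).

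Ccng1, cyclin G1, a feedback regulator of the p53 pathway whose promoter is printed above, had a mean of 11.02 in human APE1, 10.52 in mouse Ape1 and 10.65 in vector control. It rose by 0.37 in human APE1 (limma adjusted p = 0.00584). In mouse Ape1 it differed by −0.13 (adjusted p = 0.205), and between the lines by 0.50 (adjusted p = 0.00118).

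Sesn1, a sestrin that restrains the growth kinase mTORC1, read 9.09, 8.92 and 9.23 in human APE1, 8.35, 8.5 and 8.38 in mouse Ape1 and 9.15, 9.15 and 9.13 in vector control. Here the mouse Ape1 arrays stood below both other groups, which overlapped. The log2 difference was −0.73 in mouse Ape1 (SE 0.085, limma adjusted p = 0.00093), −0.06 in human APE1 (adjusted p = 0.74) and 0.67 between the lines (adjusted p = 0.00151). Btg2, an antiproliferative protein that speeds mRNA decay, read 6.96, 6.89 and 7.25 in human APE1, 6.74, 6.37 and 6.42 in mouse Ape1 and 7.19, 7.42 and 7.3 in vector control. Its mouse Ape1 arrays were the lowest too, and its human APE1 and vector control arrays overlapped. It was lower in mouse Ape1 by −0.79 (SE 0.13, limma adjusted p = 0.00482). Its difference of 0.52 between the lines (adjusted p = 0.0352) was lost without human APE1 replicate 1 or 3, mouse Ape1 replicate 2 or 3, or vector control replicate 3 (adjusted p = 0.058 to 0.117).

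Rrm2b, the p53-inducible subunit of ribonucleotide reductase that supplies nucleotides for repair, had a mean of 8.21 in human APE1, 8.07 in mouse Ape1 and 8.50 in vector control. It was lower by −0.43 in mouse Ape1 (limma adjusted p = 0.00494, or −0.25 with chromosome medians subtracted, adjusted p = 0.0203) and by −0.29 in human APE1 (adjusted p = 0.0335). The call in human APE1 was lost without human APE1 replicate 1 or 2, mouse Ape1 replicate 1 or any vector control array (adjusted p = 0.0563 to 0.111). The other 3 genes of the group, Zmat3, an RNA-binding zinc finger protein, Gadd45a, a stress-induced growth arrest protein, and Ddit4l, an inhibitor of mTORC1, did not pass in any comparison. Gadd45a differed by −0.27 in human APE1 (adjusted p = 0.141), and Ddit4l lay below the array median on all 9 arrays.

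Among the 7 p53 targets of cell death, 0 rose and 1 fell in human APE1, and 0 rose and 2 fell in mouse Ape1. Between the lines 0 were higher and 1 lower in human APE1 than in mouse Ape1. The p53 targets Fas, Tnfrsf10b and Eda2r are not in this group and are described below with the death receptors. Bax, which opens pores in the mitochondrial membrane, had a mean of 9.60 ± 0.072 in human APE1, 9.65 ± 0.11 in mouse Ape1 and 9.91 ± 0.036 in vector control (SD, n = 3 each). It was lower by −0.32 in human APE1 (limma adjusted p = 0.027) and by −0.27 in mouse Ape1 (adjusted p = 0.042). The first call was lost without human APE1 replicate 1 or 2 or any vector control array (adjusted p = 0.0542 to 0.0939). The second was lost without human APE1 replicate 1 or 2, mouse Ape1 replicate 1 or 3 or any vector control array (adjusted p = 0.0535 to 0.135). Both missed the threshold after the median shift of each chromosome was subtracted (adjusted p = 0.0513 and 0.0913).

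Phlda3, a p53 target that holds back the survival kinase Akt, was lower in mouse Ape1 by −0.30 (limma adjusted p = 0.00789) and differed by −0.16 in human APE1 (adjusted p = 0.114). Ei24, a membrane protein of the endoplasmic reticulum, had a mean of 9.46 in human APE1, 9.92 in mouse Ape1 and 9.69 in vector control. It passed only between the lines, where it was lower in human APE1 than in mouse Ape1 by −0.47 (adjusted p = 0.0032), or by −0.31 with chromosome medians subtracted (adjusted p = 0.00515). Bbc3 and Pmaip1, which encode the BH3-only killers PUMA and NOXA, and the membrane protein Perp lay near the array median and did not pass in any comparison. Pmaip1 differed by 0.28 in human APE1 (adjusted p = 0.325). Bbc3 read 5.56 on each of the 3 mouse Ape1 arrays, a value it also had on arrays of the other groups, so its spread in mouse Ape1 (SD 0.0) is not a measure of replicate error. Aen, a nuclease, did not pass either.

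**Figure D3:**
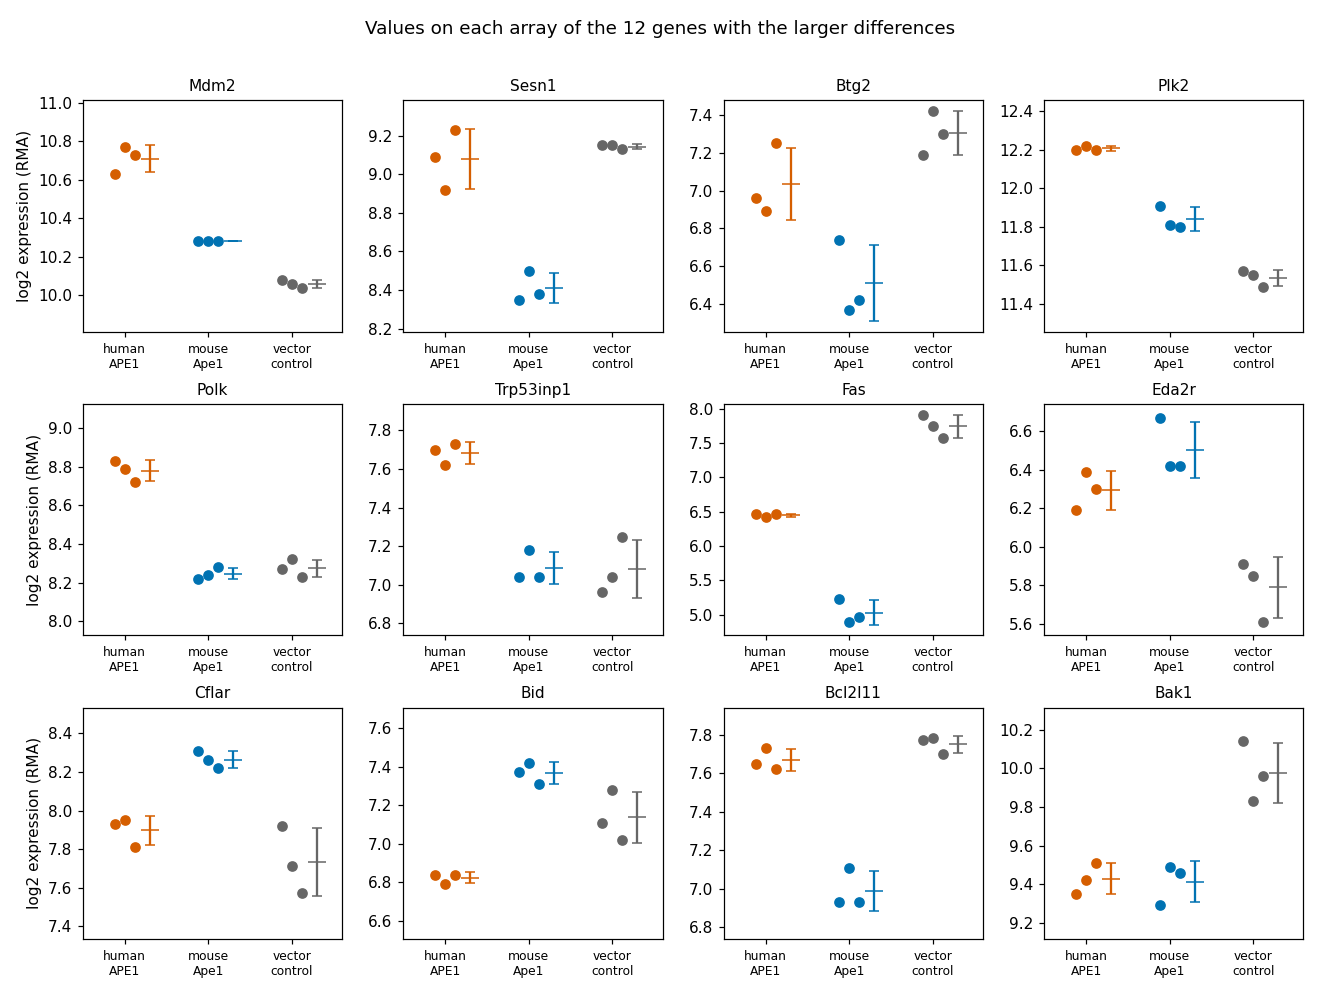
Log2 expression on each array of the 12 genes that passed with a log2 difference of at least 0.5 in 1 or more comparisons; each point is an array, the bar beside it is the mean ± SD (n = 3), and vertical axes differ between panels and do not start at 0. The 3 groups are separate for Mdm2, Plk2, Fas, Eda2r and Bid, and mouse Ape1 alone stands apart for Sesn1, Btg2, Cflar and Bcl2l11.

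The death receptor group held the gene with the largest differences of all 38. Fas, the receptor whose ligand triggers caspase 8, read 6.46, 6.42 and 6.46 in human APE1, 5.23, 4.89 and 4.97 in mouse Ape1 and 7.91, 7.75 and 7.57 in vector control. The 3 groups were far apart, with mouse Ape1 below the array median (5.71 to 5.75 on its arrays). Fas fell 6.56-fold in mouse Ape1 (log2 difference −2.71, SE 0.11, limma adjusted p = 5.1e-06) and 2.46-fold in human APE1 (−1.30, adjusted p = 0.000273). It was 2.67-fold higher in human APE1 than in mouse Ape1 (1.42, adjusted p = 0.000142). The ratios printed for Fas in the authors' deposited table were 6.63 for vector control over mouse Ape1 and 2.36 for vector control over human APE1. RMA compresses differences of dim transcripts, so the fall in mouse Ape1 may be understated.

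Eda2r, the receptor of ectodysplasin A2, went the other way. It read 6.19, 6.39 and 6.3 in human APE1, 6.67, 6.42 and 6.42 in mouse Ape1 and 5.91, 5.85 and 5.61 in vector control. All arrays of both lines lay above those of vector control. It rose by 0.72 in mouse Ape1 (SE 0.11, limma adjusted p = 0.00293) and by 0.51 in human APE1 (adjusted p = 0.0189), a call lost without human APE1 replicate 2 or vector control replicate 3 (adjusted p = 0.0705 and 0.0516). Tnfrsf10b, the mouse receptor for the death ligand TRAIL, differed by −0.03 in human APE1 (adjusted p = 0.848) and by −0.05 in mouse Ape1 (adjusted p = 0.629).

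Below the receptors, Cflar encodes FLIP, which blocks caspase 8. It read 7.93, 7.95 and 7.81 in human APE1, 8.31, 8.26 and 8.22 in mouse Ape1 and 7.92, 7.71 and 7.57 in vector control. The mouse Ape1 arrays were above both other groups, which overlapped. Cflar rose by 0.53 in mouse Ape1 (SE 0.093, limma adjusted p = 0.00661) and differed by 0.16 in human APE1 (adjusted p = 0.343). Its difference between the lines, −0.37 (adjusted p = 0.0385), was lost without any human APE1 or mouse Ape1 array or vector control replicate 2 (adjusted p = 0.0623 to 0.122).

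Casp8, the initiator caspase itself, is the neighbour of Cflar on chromosome 1, with 0 protein-coding genes between them. In mouse Ape1 it moved the opposite way to Cflar. In human APE1 it differed by 0.12 (limma adjusted p = 0.275), upward as Cflar did, and neither passed. The mean of Casp8 was 11.12 in human APE1, 10.77 in mouse Ape1 and 11.00 in vector control. It was lower by −0.23 in mouse Ape1 (limma adjusted p = 0.0325), a call lost without any mouse Ape1 or vector control array (adjusted p = 0.0577 to 0.107) and when chromosome medians were subtracted (adjusted p = 0.122). It was higher in human APE1 than in mouse Ape1 by 0.35 (adjusted p = 0.00607).

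Bid, which caspase 8 cleaves to carry the death signal to mitochondria, read 6.84, 6.79 and 6.84 in human APE1, 7.37, 7.42 and 7.31 in mouse Ape1 and 7.11, 7.28 and 7.02 in vector control. The human APE1 arrays were the lowest and the mouse Ape1 arrays the highest, with no overlap. The difference between the lines was −0.54 (SE 0.075, limma adjusted p = 0.00228), while Bid differed by 0.23 in mouse Ape1 against vector control (adjusted p = 0.0745). The fall of −0.31 in human APE1 (adjusted p = 0.0321) was lost without any 1 array other than vector control replicate 3 (adjusted p = 0.0502 to 0.103).

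In the BCL2 family, the survival genes Bcl2 and Bcl2l1 rose and the killers Bcl2l11 and Bak1 fell in mouse Ape1, while Mcl1 and Bad did not pass there. Of these 6 genes 2 rose and 2 fell in mouse Ape1, and 1 rose and 1 fell in human APE1. The fall of Bak1 was seen in both lines, and the rise of Bcl2 was lost when most single arrays were left out, as given below. Bcl2l11 encodes BIM, a BH3-only protein that starts mitochondrial death. It read 7.65, 7.73 and 7.62 in human APE1, 6.93, 7.11 and 6.93 in mouse Ape1 and 7.77, 7.78 and 7.7 in vector control. The mouse Ape1 arrays were below both other groups, which overlapped. Bcl2l11 was 1.69-fold lower in mouse Ape1 (−0.76, SE 0.07, limma adjusted p = 0.000288) and differed by −0.08 in human APE1 (adjusted p = 0.537), with 0.68 between the lines (adjusted p = 0.000566).

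Bak1, the partner of Bax in pore formation, read 9.35, 9.42 and 9.51 in human APE1, 9.29, 9.49 and 9.46 in mouse Ape1 and 10.14, 9.83 and 9.96 in vector control. Both lines lay below vector control and overlapped each other. It was lower by −0.55 in human APE1 (SE 0.097, limma adjusted p = 0.00854) and by −0.57 in mouse Ape1 (adjusted p = 0.00574), and differed by 0.01 between the lines (adjusted p = 0.956).

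Bcl2l1, which encodes the survival protein BCL-XL, had a mean of 7.51 in human APE1, 7.88 in mouse Ape1 and 7.55 in vector control. It rose by 0.33 in mouse Ape1 (limma adjusted p = 0.0122) and differed by −0.37 between the lines (adjusted p = 0.00786). Bcl2 had a mean of 9.23 in human APE1, 9.54 in mouse Ape1 and 9.26 in vector control, and rose by 0.28 in mouse Ape1 (adjusted p = 0.0488). That call was lost without any 1 array other than human APE1 replicate 3 (adjusted p = 0.0514 to 0.145). Its difference of −0.31 between the lines (adjusted p = 0.0386) was lost without any human APE1 array, mouse Ape1 replicate 1 or 3, or vector control replicate 1 (adjusted p = 0.0578 to 0.125), and was −0.18 as the mean of both Bcl2 clusters (adjusted p = 0.143). Mcl1, the third survival member, differed by −0.11 in human APE1 (adjusted p = 0.359) and by −0.02 in mouse Ape1 (adjusted p = 0.879).

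Bad, a BH3-only protein that survival kinases hold inactive, rose by 0.37 in human APE1 (limma adjusted p = 0.0222) and stood above mouse Ape1 by 0.45 (adjusted p = 0.0091). The first call was lost without human APE1 replicate 1 or 2 or vector control replicate 1 or 3 (adjusted p = 0.0573 to 0.0794), and after array medians were subtracted (adjusted p = 0.0506).

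Of the 7 genes of the apoptosome and its inhibitors, 1 rose and 0 fell in human APE1, and 0 rose and 2 fell in mouse Ape1. Apaf1, the scaffold of the apoptosome, had a mean of 9.29 ± 0.059 in human APE1, 8.89 ± 0.057 in mouse Ape1 and 8.86 ± 0.0037 in vector control (SD, n = 3 each). It rose by 0.42 in human APE1 (SE 0.058, limma adjusted p = 0.00273) and stood above mouse Ape1 by 0.40 (adjusted p = 0.00283), or by 0.20 with chromosome medians subtracted (adjusted p = 0.0361). Casp9, the caspase that the apoptosome activates, differed by 0.25 in human APE1 (adjusted p = 0.0589). In the authors' deposited table Casp9 is among the genes that passed, with a ratio of vector control over human APE1 of 0.76 (p = 0.000169).

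Cycs, cytochrome c, was lower in mouse Ape1 by −0.20 (limma adjusted p = 0.0379). The call was lost without 8 of the 9 single arrays, all but human APE1 replicate 3 (adjusted p = 0.0567 to 0.112), and when chromosome medians were subtracted (adjusted p = 0.0568). Cycs stands on 5 transcript clusters, of which the mean over all differed by −0.16 (adjusted p = 0.172), so which copy was measured is uncertain. Birc3, which encodes the ubiquitin ligase cIAP2, was lower in mouse Ape1 by −0.40 (limma adjusted p = 0.02), a call lost without any mouse Ape1 array or vector control replicate 2 or 3 (adjusted p = 0.0583 to 0.0647). Its neighbour on chromosome 9, Birc2, which encodes cIAP1, differed by 0.31 in human APE1 (adjusted p = 0.0832) and by 0.11 in mouse Ape1 (adjusted p = 0.529). Xiap, the direct inhibitor of caspases, differed by −0.02 in each line (adjusted p = 0.909 in human APE1 and 0.898 in mouse Ape1), and Diablo, which displaces it, did not pass in any comparison.

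Further genes of both pathways were read from fuller lists. Of 26 other genes of the p53 pathway, 4 rose and 2 fell in human APE1, 3 rose and 6 fell in mouse Ape1, and 5 were higher and 3 lower in human APE1 than in mouse Ape1. The shares called, 23.1%, 34.6% and 30.8%, lay near the 26.8%, 33.1% and 28.2% of the brighter genes. Mdm4, the partner of Mdm2 that restrains p53, rose by 0.73 in human APE1 (limma adjusted p = 0.00468). Ddb2, a damage sensor of nucleotide excision repair, rose in human APE1 (0.43, adjusted p = 0.00695) and in mouse Ape1 (0.42, adjusted p = 0.00599). Dram1, a lysosomal regulator of autophagy, was lower in human APE1 (−0.66, adjusted p = 0.000421) and in mouse Ape1 (−0.78, adjusted p = 0.000129). The adenylate kinase Ak1 was lower in mouse Ape1 (−0.56, adjusted p = 0.00778). In mouse Ape1 the sestrin Sesn2 rose by 1.03 (adjusted p = 4.84e-05), while its relative Sesn1 fell there. Sesn2 rose in human APE1 too, by 0.36 (adjusted p = 0.01). Ccnd1, cyclin D1, rose by 0.74 in mouse Ape1 (adjusted p = 0.000101). Both were lower in human APE1 than in mouse Ape1 (−0.66 for Sesn2 and −0.70 for Ccnd1), while the membrane protein Cd82 (0.79) and the repair nuclease Ercc5 (0.57) were higher.

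Of 30 other genes of apoptosis, 3 rose and 4 fell in human APE1, 1 rose and 5 fell in mouse Ape1, and 4 were higher and 1 lower in human APE1 than in mouse Ape1. The shares called were 23.3% in human APE1, 6 of 30 in mouse Ape1 and 16.7% between the lines. Each lay below the share of the brighter genes and above that of all transcript clusters (11.8%, 16.2% and 12.4%). Neither difference was tested. Of the 30 genes, 23 lay above the array median on all arrays and 5 below it on all, so the brighter genes are not a like background. Bok, a relative of Bax and Bak1, was lower in human APE1 (−0.85, limma adjusted p = 0.00346) and in mouse Ape1 (−0.90, adjusted p = 0.00204). Tnfrsf1a, a receptor for tumour necrosis factor, was lower in human APE1 (−0.47, adjusted p = 0.00484) and in mouse Ape1 (−0.36, adjusted p = 0.0118). Traf2 (0.59, adjusted p = 0.0013) and Ripk1 (0.29, adjusted p = 0.0306), adaptors of that receptor, rose in human APE1. Birc6, a large inhibitor of apoptosis, rose in mouse Ape1 (0.55, adjusted p = 0.00147) and in human APE1 (0.28, adjusted p = 0.0392). Its level was lower in human APE1 than in mouse Ape1 by −0.27 (adjusted p = 0.041). Ripk1 (0.49) and the mitochondrial channel Vdac1 (0.50) were higher in human APE1 than in mouse Ape1.

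The 25 called genes combined the 3 comparisons in several ways. The 5 genes Ccng1, Polk, Trp53inp1, Bad and Apaf1 rose in human APE1, were also higher there than in mouse Ape1, and did not pass in mouse Ape1 against vector control. Another 5, Trp53, Sesn1, Btg2, Casp8 and Bcl2l11, fell in mouse Ape1, were higher in human APE1 than in mouse Ape1, and did not pass in human APE1 against vector control. Cflar, Bcl2 and Bcl2l1 were the reverse of these, with a rise in mouse Ape1 and a lower level in human APE1 than in mouse Ape1. Bax, Bak1 and Rrm2b fell in both lines without passing between them. Mdm2 and Plk2 rose in both and were higher in human APE1 than in mouse Ape1, and Eda2r rose in both without passing between them. Fas fell in both lines and was higher in human APE1 than in mouse Ape1. Phlda3, Cycs and Birc3 fell in mouse Ape1 alone of the 3 comparisons, Ei24 passed only between the lines, and Bid fell in human APE1 and was lower there than in mouse Ape1. The 38 genes lie on 17 chromosomes, and the median difference of the brighter genes of those chromosomes ranged from −0.18 to 0.13 in human APE1 and from −0.17 to 0.15 in mouse Ape1. Between the lines it ranged from −0.29 on chromosome X to 0.22 on chromosome 10, which holds Mdm2, Sesn1, Perp and Apaf1.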

How the data were processed

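Total RNA of 9 dishes was labelled with biotin and hybridised to Affymetrix arrays, per the labels' protocols. The authors deposited RMA values on the log2 scale, made with Expression Console from core exons, per the labels. RMA includes quantile normalization, by which a change shared by most transcripts is largely lost, and the medians of the deposited arrays ranged from 5.64 to 5.75. The authors' deposited table of their 3-group test holds log2 group means, linear ratios and unadjusted p-values, per the file headers, and a shorter one holds the 7115 transcript clusters that passed after adjustment. The submitters' processing notes list Partek with no version. No source used here names the array design or the genome build.

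The log2 values were used as deposited, without a filter. The number of arrays limits the precision. Symbols came from the authors' deposited table, with 27 that a spreadsheet had altered restored from its annotation. A symbol on several clusters was read at the brightest, as for Cycs, Bcl2, Mcl1 and Diablo. The 3 group means were fitted over all 9 arrays with limma 3.58.1 in R 4.3.3 (lmFit and eBayes, two-sided, 6 residual and 2.07 prior degrees of freedom). Benjamini-Hochberg adjustment ran over 41345 transcript clusters within each comparison, with calls at an adjusted p under 0.05. The fit was tested on simulated data. An exact permutation test of 3 against 3 arrays cannot give a p under 0.1 and was not used. Alternatives were renewed quantile normalization, subtracted array medians, a filter on dim clusters, an intensity trend, fits of 2 groups, the replicate number as a block, all clusters of a symbol, each array left out and, chosen after seeing the data, subtracted chromosome medians. The genes and lists were chosen with earlier results of these data known. Genes that passed with a log2 difference of at least 0.5 are given with every array's value, and of the 2 further lists up to 2 rises and 2 falls per comparison are named, except some that are not reported here. Python 3.11.15, pandas 2.3.3 and matplotlib 3.10.9 made tables and figures.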

Additional observations from a re-analysis of the deposited data

Results flagged for a closer look

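For 4 genes all human APE1 arrays lay on one side of the vector control arrays and all mouse Ape1 arrays on the other, and the lines differed by limma's test across all transcript clusters. The difference of human APE1 minus mouse Ape1 was 0.50 for Ccng1 (adjusted p = 0.00118) and 0.35 for Casp8 (adjusted p = 0.00607), with human APE1 above and mouse Ape1 below vector control. It was −0.47 for Ei24 (adjusted p = 0.0032) and −0.54 for Bid (adjusted p = 0.00228), with human APE1 below and mouse Ape1 above vector control. Against vector control only Ccng1 and Bid in human APE1 and Casp8 in mouse Ape1 passed, and Ei24 passed in neither line. With the authors' p-values, adjusted likewise, the Casp8 difference between the lines did not pass (adjusted p = 0.104). Among the brighter genes 50.8% separated from vector control in human APE1 and 58.1% in mouse Ape1. The share with this 2-sided pattern was not counted. Groups of 3 arrays are too small for a test of single outlying arrays.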

How the results depend on the processing

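Of 49 called differences of the 38 genes, 35 stayed past the threshold without any 1 of the 9 arrays, and none of the 49 changed direction under any alternative run. Leaving out 1 array gave 8 to 13 called genes in human APE1 against vector control, in place of 13, 12 to 19 in mouse Ape1 against vector control, in place of 18, and 15 to 18 between the lines, in place of 18. Over all transcript clusters it gave 3185 to 4776 calls in place of 4859, 4433 to 6772 in place of 6681, and 3691 to 4892 in place of 5130. Calls of the 49 were lost under the authors' ratios and p-values (12), with only the 6 arrays compared (8), with renewed quantile normalization (4), array medians subtracted (4), chromosome medians subtracted (4) and all clusters of a symbol averaged (3). The filter on dim clusters and the intensity trend lost 0. Calls were added by chromosome medians subtracted (6), the filter on dim clusters (6), the authors' values (4), the intensity trend (4) and the fit of 6 arrays (1), and by no other of these settings. Same-numbered dishes did not deviate together (r = −0.075 to 0.104 over 9 pairs), which gave no sign of pairing. With so few arrays per group this cannot settle whether the numbers mark a shared day, which the labels do not say. With the replicate number as a block, 10 of the 49 calls were lost, and 10, 13 and 16 genes were called in the 3 comparisons. Differences of uncalled genes turned sign for Cycs in human APE1 against vector control with all clusters averaged (0.03), and for Xiap between the lines with array medians (0.01) or chromosome medians (0.27, adjusted p = 0.0144) subtracted, quantile normalization (0.05), the authors' ratio (0.03), or without human APE1 replicate 2 (0.07) or mouse Ape1 replicate 2 (0.00), with a range of −0.06 to 0.07 over arrays left out. The cause was not tested.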
